A study of Mus musculus with 10 samples.

Results

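Blastocysts that developed from eggs without Tet3 were compared with wild-type (WT) blastocysts by reduced representation bisulfite sequencing (RRBS), a method that cuts genomic DNA with MspI and reads the CpG-rich fragments after bisulfite treatment. The comparison uses 4 of the 10 libraries of the series, 2 of WT and 2 of maternal Tet3 knockout embryos, which the labels abbreviate as CKO. The unit of comparison was the autosomal 100-bp tile, in which methylated and unmethylated counts were summed over cytosine positions. Of 183899 such tiles with a count in any library, 11823 (6.43%) had 10 or more counts in each of the 4 blastocyst libraries and were used, whatever their coverage in zygotes.

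All blastocysts came from in vitro fertilisation of oocytes with CAST/EiJ sperm, were of the cross C57BL/6J x CAST/EiJ by label, and were frozen 96 h after fertilisation. The oocyte donors were superovulated females aged 7 to 10 weeks. Each library pooled 4 blastocysts. WT blastocysts are labelled WT, and CKO blastocysts carry the genotype label maternal Tet3 KO. The sperm libraries of the father's strain, which set the sperm level of each tile here, are labelled WT. The promoter or Cre line behind the knockout is not given in the sources used here. RRBS measures neither RNA nor the deleted exons, so the labels of genotype and stage were not checked against Tet3 or against markers of the inner cell mass and trophectoderm, the cell layers that a whole blastocyst mixes.

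TET3 is a dioxygenase that oxidises 5-methylcytosine to 5-hydroxymethylcytosine and further products, and the egg stores it for the first cell cycle, when it acts mainly on the DNA brought in by sperm. During the cleavages that follow, methylation that is not copied onto new DNA strands is diluted, and the blastocyst is the stage at which methylation of the embryo is lowest. Bisulfite sequencing reads 5-methylcytosine and 5-hydroxymethylcytosine alike, so each level below is the sum of both. Whether the authors assigned reads to a parental allele is not given in the sources used here, and a level may therefore stand for 1 or both alleles.

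The blastocyst libraries held 1005492 to 1093843 counts over 147001 to 165866 cytosine positions, and the median position had 4 to 5 counts. The median tile held 29 counts per library and 3 CpGs. A read that covers several positions of a tile adds a count at each, so tile counts are not numbers of reads, and binomial intervals cover counting error only. Replicates are biological duplicates by label, and with 2 against 2 libraries the exact two-sided permutation test cannot give a p below 0.333.

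Across all 11823 tiles methylation was higher in CKO than in WT blastocysts. The mean tile level was 10.93% and 10.59% in the WT libraries and 14.25% and 14.08% in the CKO libraries. The difference of 3.41 points (SD of the difference 0.271) exceeded the spread between replicates, with an exact permutation p of 0.333, the smallest possible. It was largest in tiles that sperm had methylated, smaller in those methylated in part in sperm and not seen in those unmethylated in sperm. A tile was called sperm-methylated at a pooled sperm level of 80% or more, sperm-unmethylated at 20% or less and sperm-intermediate between these limits, given 10 counts in each sperm library, which left 186 tiles without a class.

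In the 3448 sperm-methylated tiles, which averaged 96.2% in sperm, the WT libraries stood at 26.2% and 25.4% and the CKO libraries at 35.0% and 34.9%. The ranges of the genotypes did not touch, being separated by 8.70 points. CKO exceeded WT by 9.15 points (SD of the difference 0.572, n = 2 each, exact permutation p = 0.333). As a share of the sperm level, WT blastocysts held 26.8% ± 0.590 and CKO blastocysts 36.3% ± 0.0715 (SD, n = 2 each). The median tile difference was 8.86 points, against 0 points over all tiles, of which 4635 held no methylated count in any of the 4 libraries.

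The 6575 sperm-unmethylated tiles showed no such difference. They averaged 1.84% and 1.62% in the WT libraries and 1.66% and 1.61% in the CKO libraries. Here the groups overlapped, and the difference of -0.0912 points was smaller than its SD of 0.164 (n = 2 each, exact permutation p = 0.667). Tiles at 20% or more made up 2.89% ± 0.172 of this class in WT and 2.78% ± 0.161 in CKO (SD, n = 2 each). The difference in sperm-methylated tiles exceeded that in sperm-unmethylated tiles by 9.24 points (SD 0.409, exact permutation p = 0.333).

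**Figure D1:**
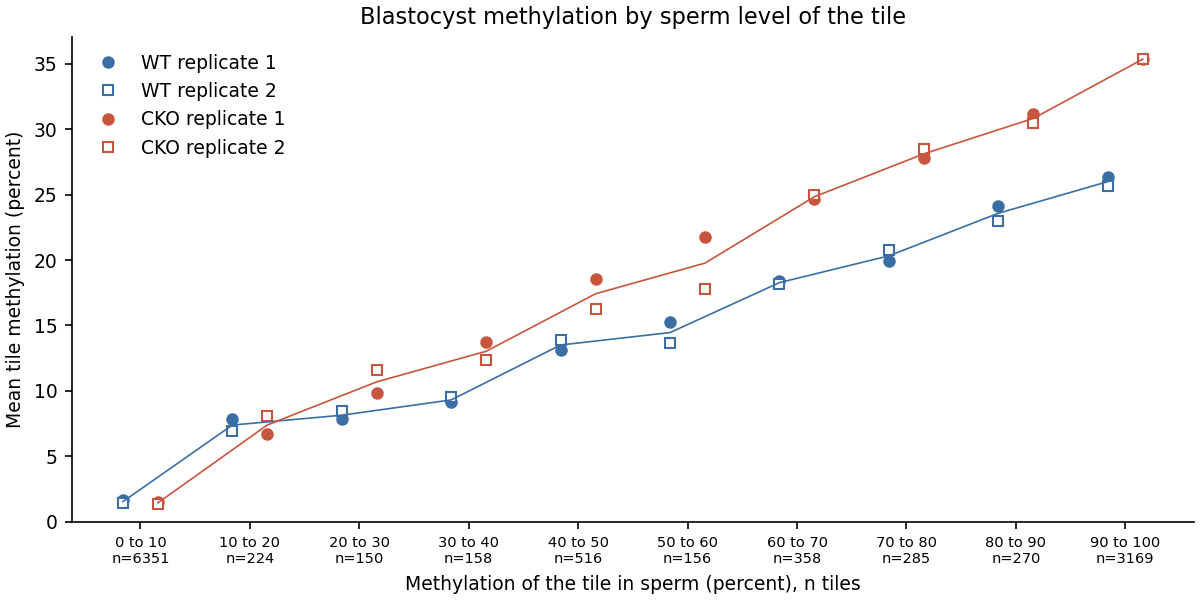
Mean methylation of tiles in each blastocyst library (percent, vertical axis) by 10-point bins of the tile's methylation in sperm (horizontal axis, with the number of tiles); points are libraries and lines join the group means. The libraries overlap in the 2 lowest bins, and CKO lies above WT in every bin over 20%.

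The difference was larger at higher sperm levels, except that it was 7.80 points at 70 to 80% and 7.25 points at 80 to 90%, while the ratio of the 2 genotypes stayed within a narrow range. In 150 tiles at 20 to 30% in sperm, WT averaged 8.14% ± 0.415 and CKO 10.7% ± 1.25 (SD, n = 2 each), a ratio of 1.31. In 358 tiles at 60 to 70% the means were 18.3% ± 0.122 and 24.8% ± 0.203, a ratio of 1.36. In 3169 tiles above 90% they were 26.0% ± 0.512 and 35.4% ± 0.0212, also a ratio of 1.36. Between these, the bins had ratios of 1.29 to 1.40, and in all 8 bins above 20% the libraries of the genotypes did not overlap. At 10 to 20% in sperm (224 tiles) the means were 7.38% ± 0.641 and 7.39% ± 0.963, and the libraries overlapped.

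Sperm-intermediate tiles were mostly mixtures of positions. Over the 1614 tiles of this class, WT libraries averaged 14.7% and 15.0% and CKO libraries 20.5% and 19.7%, a difference of 5.26 points (SD 0.674, n = 2 each, exact permutation p = 0.333). This was smaller than in sperm-methylated tiles by 3.89 points (SD 0.997). In 992 of the 1614 tiles (61.5%), a position methylated in sperm and a position unmethylated in sperm lay in the same tile (5 counts in each sperm library, the same limits of 80% and 20%). At the 1671 methylated positions of these tiles, pooled levels were 26.6% and 26.3% in WT and 36.6% and 35.9% in CKO, a difference of 9.82 points (SD 0.505). The 1057 unmethylated positions stayed at 0.205% ± 0.00566 in WT and 0.300% ± 0.105 in CKO (SD, n = 2 each). With counts pooled in the same way, the difference was 8.83 points (SD 0.164) in sperm-methylated tiles and 5.67 points (SD 0.387) in all sperm-intermediate tiles. The difference at methylated positions of mixed tiles thus lay nearer to that of sperm-methylated tiles. In the other 622 sperm-intermediate tiles the mean tile difference was 4.18 points (SD 0.672), in a split chosen after the data were seen.

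The difference was seen across the distribution of sperm-methylated tiles, from the share without a methylated count to the share at high levels. Tiles at exactly 0% made up 23.6% and 29.2% of the class in the WT libraries and 16.2% and 14.8% in the CKO libraries. Tiles at 20% or less made up 49.0% and 50.6% in WT and 35.5% and 32.7% in CKO, a difference of -15.7 points (SD 2.26). At the upper end, tiles at 60% or more made up 11.2% and 11.8% in WT and 19.7% and 18.6% in CKO, a difference of 7.66 points (SD 0.865). None of these shares overlapped between the genotypes, and each had the smallest exact permutation p (0.333, n = 2 each). The 25th percentile was 2.00% ± 2.83 in WT and 13.5% ± 1.47 in CKO, the median 20.6% ± 0.811 and 32.4% ± 0.412 and the 75th percentile 41.7%, equal in both WT libraries, and 53.1% ± 0.277 (SD, n = 2 each). Methylation of 60% or more in each of the 4 libraries was found in 9 tiles, and 20% or less in each was found in 264.

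**Figure D2:**
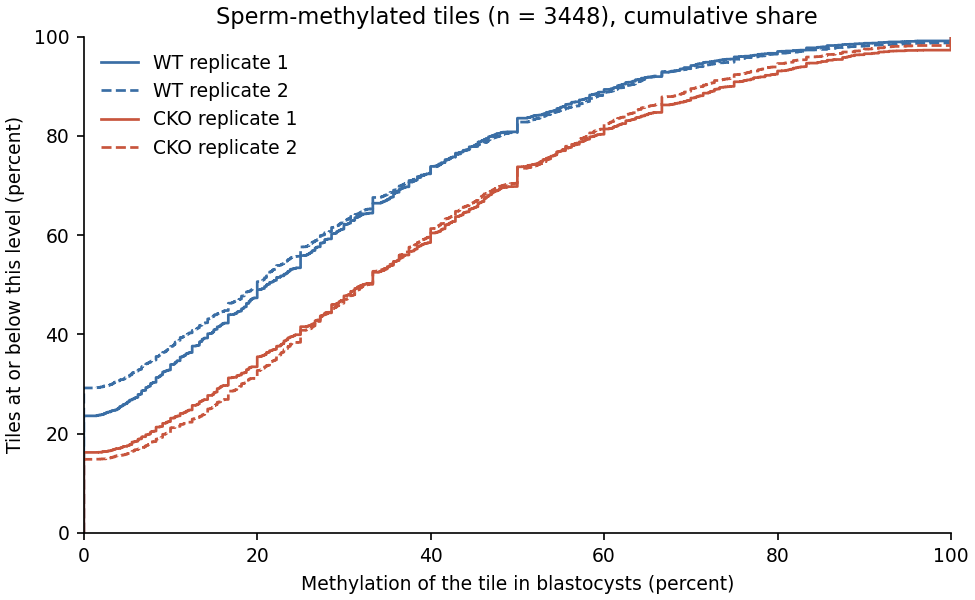
Cumulative share of the 3448 sperm-methylated tiles (percent, vertical axis) at or below each methylation level (percent, horizontal axis), 1 line per blastocyst library. The CKO lines run below the WT lines: 35.5% and 32.7% of tiles are at 20% or less in CKO, against 49.0% and 50.6% in WT.

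CKO lay above WT in sperm-methylated tiles of every CpG count from 1 to 7. Mean levels rose with each count from 1 CpG (23.3% in WT and 32.6% in CKO) to 5 CpGs (34.3% and 40.2%). In the few tiles with 6 or 7 CpGs they did not continue in 1 direction. CpGs were counted in each tile from positions with a count in any blastocyst library, with neighbouring positions joined as the 2 strands of 1 CpG. In the 3112 tiles with 1 to 3 CpGs, WT averaged 25.4% and 24.98% and CKO 34.3% and 34.5%, a difference of 9.20 points (SD 0.360). The 330 tiles with 4 to 7 CpGs were higher in every library, at 33.7% and 29.5% in WT and 41.6% and 38.8% in CKO, and differed by 8.58 points (SD 3.57). The difference in these denser tiles was lower by 0.623 points with an SD of 3.40, and the libraries overlapped in this contrast (exact permutation p = 0.667, n = 2 each, where 0.333 is the smallest possible).

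By single counts, the difference was 9.33 points (SD 1.54) at 1 CpG (1061 tiles), 9.15 (SD 0.831) at 2 CpGs (1455 tiles) and 9.11 (SD 0.979) at 3 CpGs (596 tiles). It was 8.41 points (SD 3.77) at 4 CpGs (220 tiles) and 5.93 (SD 3.91) at 5 CpGs (74 tiles). The 23 tiles with 6 CpGs had the largest difference of these counts, 18.2 points (SD 2.77), with 26.7% and 28.8% in WT and 47.7% and 44.3% in CKO. The 13 tiles with 7 CpGs gave 9.35 points (SD 5.79). No single count was tested against the others. Only 6 sperm-methylated tiles had 8 or more CpGs, some of them through CpGs read once in 1 library. They averaged 21.5% and 30.3% in WT and 46.0% and 32.8% in CKO, and the difference of 13.5 points had an SD of 11.2. It was 6.91 points without CKO replicate 1, 20.1 without CKO replicate 2, and 21.5 (SD 1.22) over 25 tiles of 200 bp. The 1069 sperm-unmethylated tiles of that density, which hold most of the CpG-rich DNA read here, stayed at 0.754% ± 0.166 in WT and 0.764% ± 0.209 in CKO (SD, n = 2 each).

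**Figure D3:**
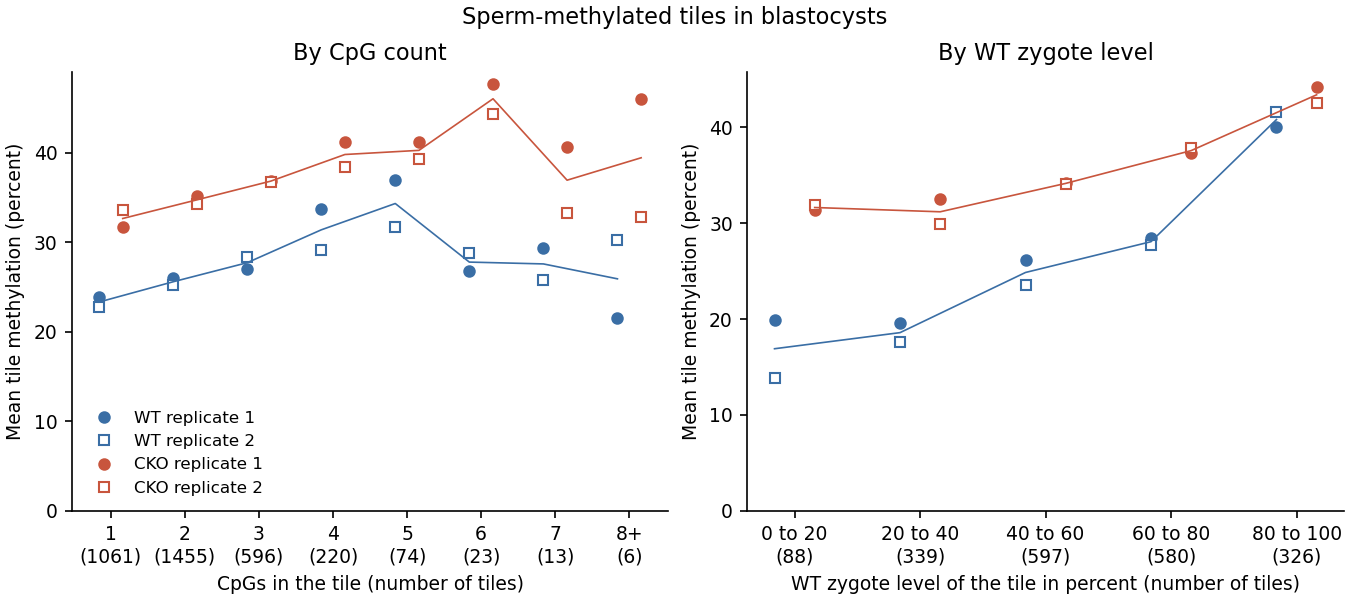
Mean methylation of sperm-methylated tiles in each blastocyst library (percent, vertical axes) by CpG count of the tile (left) and by its level in WT zygotes (right), with the number of tiles in brackets; points are libraries and lines join group means. The genotypes are 8.41 to 9.33 points apart at 1 to 4 CpGs, and 14.7 points apart at the lowest but 2.58 points apart at the highest zygote level.

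Sperm-methylated tiles at low levels in WT zygotes differed more between the blastocysts than those at high levels in WT zygotes. This was read over the 1930 sperm-methylated tiles that also had 10 counts in each of the 4 zygote libraries, which were frozen at 13 h. In the 88 tiles at 20% or less in WT zygotes, WT blastocysts stood at 19.9% and 13.9% and CKO blastocysts at 31.3% and 31.9%, a difference of 14.7 points (SD 4.29). The difference was 12.6 points (SD 2.30) at zygote levels of 20 to 40% (339 tiles), 9.29 (SD 1.80) at 40 to 60% (597 tiles) and 9.50 (SD 0.602) at 60 to 80% (580 tiles). In the 326 tiles above 80% in WT zygotes, WT blastocysts stood at 40.0% and 41.6% and CKO blastocysts at 44.2% and 42.5%, a difference of 2.58 points (SD 1.61).

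Between the lowest and the highest of these bins the genotype difference changed by 12.1 points (SD 5.59, n = 2 each, exact permutation p = 0.333). WT blastocysts followed the WT zygote level more steeply than CKO blastocysts did. When the same tiles were sorted by their level in CKO zygotes instead, the difference was 11.7 points (SD 9.62) in the lowest bin, which held only 16 tiles, and 6.77 (SD 0.773) in the highest (605 tiles). That change of 4.88 points was smaller than its SD of 9.17. Over the 1930 tiles the genotype difference was 11.5 points (SD 0.382) in zygotes and 9.05 points (SD 1.06) in blastocysts. Across tiles, the zygote and the blastocyst difference were nearly unrelated, with a Pearson r of 0.0737 and a Spearman rho of 0.0632 over 1930 tiles. These are correlations across tiles, which share libraries and are not independent replicates.

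The difference was spread over the genome. CKO exceeded WT without overlap of the libraries on all 19 autosomes, by 6.86 points on chromosome 17 (154 sperm-methylated tiles) to 12.2 points on chromosome 13 (161 tiles). It also hardly varied with depth. It was 9.12 points (SD 1.23) in the 1860 tiles whose lowest library held 10 to 14 counts, 9.27 (SD 0.395) in 748 tiles with 20 to 39, and 9.96 (SD 1.99) in 96 tiles with 40 or more. The difference did not follow the distance to sperm-unmethylated DNA in 1 direction. Sperm-methylated tiles within 500 bp of a sperm-unmethylated tile (66 tiles) held 29.7% and 28.9% in WT and 32.8% and 34.7% in CKO, a difference of 4.44 points (SD 1.46). It was 10.6 points (SD 4.52) in 73 tiles over 500 bp and up to 2 kb away, 8.27 (SD 2.21) in 466 tiles at 2 to 10 kb and 9.01 (SD 0.661) in 1387 tiles beyond 10 kb and up to 50000 bp. The 1456 tiles more than 50000 bp away differed by 9.71 points (SD 0.401), and the change between the nearest and the farthest set was -5.26 points (SD 1.55, exact permutation p = 0.333, n = 2 each). At a count minimum of 20 only 14 tiles within 500 bp remained, and the change turned to 2.87 points (SD 3.36).

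Single tiles varied far more between replicates than these means. In sperm-methylated tiles the 2 WT libraries differed by a median of 16.7 points and the 2 CKO libraries by 22.7 points, and libraries of different genotype by 21.4 to 22.7 points. The squared difference between replicates was on average 5.70 times (WT) and 6.40 times (CKO) what binomial counting gives. Across tiles, the WT libraries correlated with each other at r = 0.344 and the CKO libraries at r = 0.184, while libraries of different genotype correlated at 0.154 to 0.192, all over 3448 tiles. Which tiles were methylated was thus as similar between genotypes as between the CKO replicates. Where each CKO library was paired with a different WT library, the 2 resulting tile differences had an r of 0.126 in one pairing and 0.0904 in the other. Neighbouring sperm-methylated tiles 100 to 200 bp apart, which 1 fragment can cover, had related differences (r = 0.465 over 217 pairs), whereas pairs over 1 kb and up to 10 kb apart did not (r = 0.0320 over 159 pairs).

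No single tile passed the test. edgeR's quasi-likelihood F-test with Benjamini-Hochberg adjustment called 0 of 11823 tiles (0% higher and 0% lower in CKO), limma and edgeR's likelihood ratio test also called 0, and the smallest adjusted p in edgeR was 0.467. Fisher's exact test on counts pooled within each genotype, which has no term for replicate spread, called 1526 higher and 617 lower. At this depth and with 2 libraries a group, the tile test had little room to call even large differences, and a count of 0 does not show that tiles were alike. At an unadjusted p below 0.05, edgeR gave 331 tiles higher in CKO (2.8% of all tiles) and 64 lower (0.541%). Among sperm-methylated tiles these were 240 of 3448 (6.96%) and 29 (0.841%), and among sperm-unmethylated tiles 20 of 6575 (0.304%) and 26 (0.395%). In 1545 tiles (13.1%) both CKO libraries lay above both WT libraries and in 675 (5.71%) below. Of the sperm-methylated tiles 971 (28.2%) lay above and 328 (9.51%) below. Of all tiles, 4635 held no methylated count in any of the 4 libraries, and 4468 of these were sperm-unmethylated. Such tiles could neither be called nor lie without overlap. They lower the shares over all tiles and, most of all, those of the sperm-unmethylated class.

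The tiles named next had the smallest unadjusted p among those without overlap. Positions are on mm9, counted from 1, and since the gene annotation at hand is of another build, the genes, exons, introns and promoters at these tiles were not assigned. The smallest p belonged to a tile on chromosome 5 at positions 107621501 to 107621600 (5 CpGs, 78.9% in sperm). WT libraries held 0 of 67 methylated counts, which allows up to 4.48%, and 5 of 108 (4.63%, exact 95% interval 1.52 to 10.5). CKO libraries held 39 of 63 (61.9%, 48.8 to 73.9) and 41 of 64 (64.1%, 51.1 to 75.7). The groups lay far apart, at 2.31% ± 3.27 and 63.0% ± 1.53 (SD, n = 2 each), with an adjusted p of 0.467 in edgeR.

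Within this tile the positions did not behave alike. At positions 107621553 and 107621566, each, WT held 0 of 17 and 2 of 27 methylated counts, and CKO held 13 of 13 and 13 of 15. At position 107621592, WT held 0 of 17 and 0 of 27, and CKO held 13 of 13 and 14 of 15. At positions 107621588 and 107621593, all 4 libraries held 0 methylated counts, of 8, 13, 12 and 9. Positions 107621592 and 107621593 are neighbours and were counted as the 2 strands of 1 CpG, so in the CKO libraries these strands, which differ in their counts, had opposite states. The tile level averaged over such positions.

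A tile on chromosome 3 at positions 94994301 to 94994400 (2 CpGs, 100% in sperm) had 0 of 40 and 0 of 50 counts in WT, which allows up to 7.50% and 6.00%. CKO held 69.2% and 87.5% of 26 and 16 counts. On chromosome 11 at positions 102065701 to 102065800 (2 CpGs), WT held 0 of 20 and 0 of 52 counts, which allows up to 15.0% and 5.77%, and CKO held 75.0% and 63.6% of 24 and 22. In both of these tiles methylation detected in sperm was undetected in WT blastocysts at this depth and high in both CKO libraries.

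The remaining tiles of this kind were less even between the CKO replicates. A tile on chromosome 19 at positions 27222101 to 27222200 had 0 of 45 and 0 of 21 counts in WT (up to 6.67% and 14.3%) and 46.2% and 87.5% in CKO. On chromosome 7 at 31047001 to 31047100, WT held 0% of 55 counts (up to 5.45%) and 6.67% of 15 counts, and CKO held 88.0% of 50 and 50.0% of 10. Each of the 5 positions of this tile held only 11 and 3 counts in WT and 10 and 2 in CKO. On chromosome 4 at 57275501 to 57275600, WT held 5.95% and 6.73% and CKO 83.1% and 29.2%. The CKO libraries there lay further apart from each other than the lower of them lay from WT. The tile on chromosome 1 at 186919101 to 186919200 held 10.8% and 0% of 74 counts (up to 4.05%) in WT and 76.5% and 37.5% in CKO. The last, on chromosome 6 at 117224601 to 117224700, held 10.7% and 0% of 35 counts (up to 8.57%) in WT and 55.6% and 100% in CKO. WT replicate 1 was counted there only at positions 117224663 and 117224673, and CKO replicate 2 only at 117224634, 117224662 and 117224672. WT replicate 2 held 16 counts at each of the former and 1 at each of the latter. The levels of this tile thus come largely from different cytosines.

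**Figure D4:**
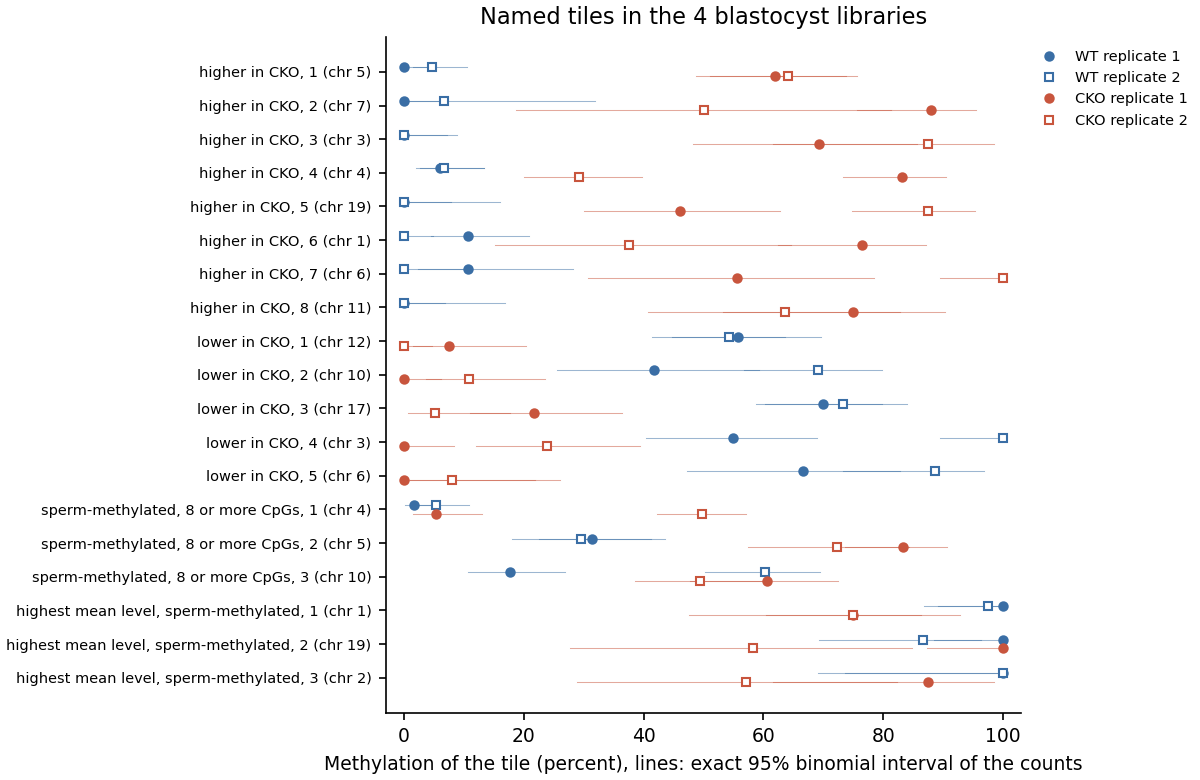
Methylation (percent, horizontal axis) of the 19 named tiles in the 4 blastocyst libraries, grouped by the rule that named them and ranked by p or level within it; points are libraries and lines exact 95% binomial intervals of the summed counts. The first 8 tiles are 0 to 10.8% in WT and 29.2 to 100% in CKO, and the next 5 are the other way round.

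Tiles lower in CKO were fewer and began from different sperm levels. The one with the smallest p, on chromosome 12 at positions 107211901 to 107212000 (4 CpGs), held only 13.2% in sperm, 55.8% and 54.3% in WT blastocysts and 7.50% and 0% (0 of 76 counts, up to 3.95%) in CKO blastocysts, with an adjusted p of 0.896 in edgeR. A tile on chromosome 10 at 76535701 to 76535800 held 5.04% in sperm, 41.7% and 69.1% in WT and 0% (of 58 counts, up to 5.17%) and 10.9% in CKO. Both belonged to the sperm-unmethylated class, the first of them near its limit of 20%. The other 3 had been methylated or intermediate in sperm. On chromosome 17 at 66670101 to 66670200 (97.7% in sperm), WT held 70.0% and 73.3% and CKO 21.7% and 5.26%. On chromosome 3 at 136448801 to 136448900 (99.2% in sperm), WT held 54.9% and 100% and CKO 0% (of 42 counts, up to 7.14%) and 23.8%. On chromosome 6 at 129873801 to 129873900 (64.2% in sperm), WT held 66.7% and 88.6% and CKO 0% (of 15 counts, up to 20.0%) and 8.00%. Each of the 5 positions of this tile held only 6 and 7 counts in WT and 3 and 5 in CKO.

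Among sperm-methylated tiles with 8 or more CpGs, the tile on chromosome 5 at positions 122022701 to 122022800 (9 CpGs, 96.1% in sperm) had groups that did not overlap. It held 31.4% and 29.6% in WT and 83.3% and 72.3% in CKO, a difference of 47.3 points (SD 7.87). Its positions 122022704, 122022711 and 122022731 were read only in CKO replicate 2, with 1 count each. Its CpG count thus exceeds the CpGs that the 4 libraries share. In zygotes the same tile held 68.4% ± 8.80 in WT and 98.6% ± 1.96 in CKO (SD, n = 2 each). The 8 tiles named first as higher in CKO did not all share this direction in zygotes. There, CKO minus WT was -20.8 points on chromosome 3 at 94994301 and -20.6 on chromosome 19 at 27222101, with overlapping libraries. In the rest of the 8 it was 1.58 to 35.7 points, some with few or no counts in a zygote library. The tile on chromosome 4 at 117357601 to 117357700 (8 CpGs) held 1.67% and 5.38% in WT and 5.33% and 49.7% in CKO, so its difference came from CKO replicate 2 alone. The tile on chromosome 10 at 127179501 to 127179600 (8 CpGs) held 17.7% and 60.2% in WT and 60.6% and 49.4% in CKO, and the groups overlapped. Its positions 127179506 and 127179518 were likewise read only in CKO replicate 2, with 1 count each.

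The 3 sperm-methylated tiles with the highest mean over the 4 libraries were at 86.7 to 100% in WT blastocysts. On chromosome 1 at positions 24426101 to 24426200, WT held 100% of 32 and 97.5% of 40 counts and both CKO libraries 75.0% (of 16 and 48). On chromosome 19 at 5422901 to 5423000, WT held 100% and 86.7% and CKO 100% and 58.3%. On chromosome 2 at 165230401 to 165230500, WT held 100% in both libraries (of 10 and 12 counts) and CKO 87.5% and 57.1%. Their adjusted p was 1 in edgeR. These tiles were chosen for high levels, and their counts were low.

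Summed over 5-Mb windows, sperm-methylated tiles were higher in CKO in most windows with enough counts. Windows below the count minimum were not read. Of 241 windows with 100 or more counts in each library, 207 (85.9%) had a difference above 0 and 34 below, with a median of 9.33 points and an interquartile range of 4.26 to 13.99 points. Both CKO libraries lay above both WT libraries in 135 windows and below in 6. edgeR's quasi-likelihood test with Benjamini-Hochberg adjustment called 14 windows higher in CKO (5.81%) and 0 lower (0%), on 11 chromosomes, with differences of 15.1 to 36.6 points. limma called 8 higher and 0 lower, and at an unadjusted p below 0.05 edgeR gave 67 higher and 0 lower.

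With the replicate number as a block, 0 of the 241 windows were called. Of the 14 windows, 6 were also called by limma, 5 without WT replicate 1, 1 without WT replicate 2, 0 without CKO replicate 1 and 6 without CKO replicate 2. The difference itself comes from the library levels, so limma and the block leave it unchanged. When 1 library was left out, the difference of all 14 windows remained above 0. That cannot turn where the groups do not overlap, and the 14 windows had been picked as higher in CKO. With every sperm-methylated position in place of covered tiles, 130 of 417 windows were called higher and 0 lower.

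The window with the smallest p started at position 180000001 of chromosome 2 (5 tiles). It held 14.7% and 21.0% in WT and 49.2% and 59.7% in CKO, over 132 to 219 counts (adjusted p = 0.0153 in edgeR). The window from 145000001 of chromosome 6 (5 tiles) held 12.8% and 20.1% in WT and 56.9% and 38.6% in CKO. The one from 95000001 of the same chromosome (9 tiles) held 3.45% and 6.73% in WT and 32.8% and 26.3% in CKO. These windows were chosen by their p, so that their separation is a description. In the opposite direction the smallest p belonged to the window from 35000001 of chromosome 8 (3 tiles), at 49.2% and 51.2% in WT and 49.5% and 28.0% in CKO (adjusted p = 0.318 in edgeR), where the groups overlapped. The window from 50000001 of chromosome 7 held 23 sperm-methylated tiles and 938 to 1379 counts per library, with 39.7% and 37.6% in WT and 34.6% and 29.7% in CKO (adjusted p = 0.362 in edgeR). On the same chromosome, the window from 100000001 (5 tiles) held 46.7% and 39.5% in WT and 30.9% and 29.2% in CKO (adjusted p = 0.376 in edgeR). In both chromosome 7 windows the CKO libraries lay below the WT libraries.

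**Figure D5:**
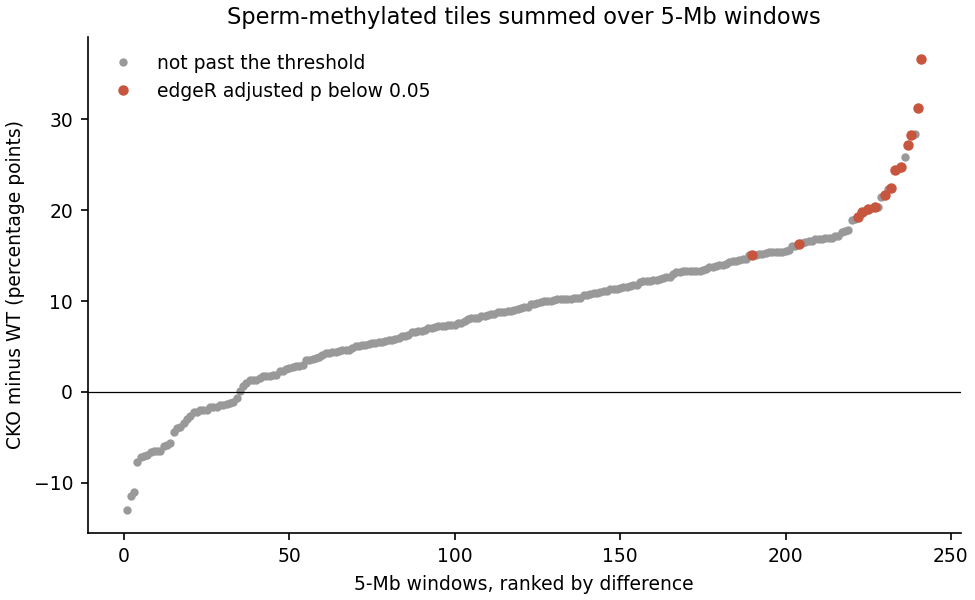
CKO minus WT methylation (percentage points, vertical axis) of sperm-methylated tiles summed in 241 windows of 5 Mb, ranked along the horizontal axis. The difference is above 0 in 207 windows, and the 14 windows with an edgeR adjusted p below 0.05 lie between 15.1 and 36.6 points.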

How the data were processed

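Libraries were grouped by their titles. Per the labels' protocols, DNA was digested with MspI, bisulfite converted and amplified by PCR, with no mention of molecular identifiers. Trim Galore, Bismark 0.10.1 and mm9 come from the submitters' processing notes, with settings not given in the sources used here. The deposited files give methylated and unmethylated counts for each cytosine position and the authors' percent methylation, which equalled the percent recomputed from the counts within 0.001 points at 100% of positions. Only counts were analysed.

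Positions were grouped in 100-bp tiles, whose level is 100 times methylated over all counts, each tile weighing the same in a mean. Tiles and 5-Mb windows were tested with edgeR 4.0.16 (R 4.3.3) on methylated and unmethylated counts, with a term for each library, a negative binomial dispersion of 0 and Benjamini-Hochberg adjustment at 0.05. The tests ran on the 4 blastocyst libraries. limma 3.58.1 on log2 ratios of the counts (0.5 added), Fisher's exact test, other count minimums, units and windows, and leaving out each library were alternatives. Library means were compared by exact permutation. Intervals are exact (Clopper-Pearson, 95%), and a share of 0 allows up to 3 counts of the total. Of the tiles, 4635 held no methylated count in any of the 4 libraries.

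Named tiles are the 8 with the smallest p higher and the 5 lower in CKO without overlap of the groups, the 3 with the smallest p among sperm-methylated tiles of 8 or more CpGs and the 3 sperm-methylated tiles of highest mean. Named windows are the 3 with the smallest p in each direction. Members, classes and tests were chosen with earlier results of these data known. The main tests used no replicate block. Deviations of same-numbered WT and CKO libraries correlated at 0.0371 over the 3448 sperm-methylated tiles. With tile levels this noisy, that value cannot decide whether same-numbered libraries were paired.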

Additional observations from a re-analysis of the deposited data

Results flagged for a closer look

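The tile on chromosome 12 at positions 107211901 to 107212000 (mm9) moved in opposite directions at the 2 stages, with every library of one genotype on the same side of the other. CKO minus WT was 61.3 points in zygotes (0% in both WT libraries, 61.3% ± 5.25 in CKO, SD, n = 2) against -51.3 points in blastocysts, so that the stages were -112.6 points apart. The tile on chromosome 10 at 76535701 to 76535800 did the same, with 19.3 points in zygotes (15.2% ± 2.14 in WT and 34.4% ± 7.89 in CKO, n = 2 each) and -49.96 points in blastocysts, so that the stages were -69.2 points apart. Neither change was tested here. Both tiles had been picked for their blastocyst difference, so its size is a result of that choice.

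The X chromosome lies outside the autosomal tiles. At 45 X positions methylated in sperm and counted in all 4 blastocyst libraries, levels were 28.1% and 29.8% in WT (281 and 342 counts) and 45.7% and 44.3% in CKO (247 and 253 counts), a difference of 16.0 points (SD 1.60). At 58 X positions unmethylated in sperm they were 1.99% and 2.38% in WT and 4.75% and 4.23% in CKO, a difference of 2.30 points (SD 0.461). The groups overlapped in neither set, with an exact permutation p of 0.333, the smallest possible with n = 2 each. Tiles of the X with 10 counts in each library were few and went the other way. In 2 sperm-methylated tiles, levels were 27.5% and 27.3% in WT and 14.3% and 37.3% in CKO, a difference of -1.60 points (SD 16.2). In 6 sperm-unmethylated tiles the difference was -2.25 points (SD 4.34), and the groups overlapped in both sets.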

How the results depend on the processing

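The mean difference was above 0 in all 83 recomputed values for all tiles, sperm-methylated and sperm-intermediate tiles and the 3 CpG classes. Part of these values could not have turned. The replicate block leaves each mean difference unchanged. Leaving out 1 library cannot change the sign where the groups do not overlap, as in all of these sets. Over all tiles it was 4.36 points at a count minimum of 5, 2.46 at 20, 4.23 over single positions, 2.70 with pooled counts and 2.85 with 10 counts in each zygote library. These sets hold different shares of sperm-methylated tiles, and the cause was not tested. In sperm-intermediate tiles it was 5.97 points at a minimum of 20, 6.68 over single positions, 4.57 with zygote coverage and 4.18 without the mixed tiles (chosen after seeing the data). In sperm-methylated tiles of 1 to 3 CpGs it was 8.84 with pooled counts. The sperm-unmethylated difference was -0.303 over single positions, and at a minimum of 20 its sign turned, at 0.0200 points, within its SD. At that minimum the change in the share of tiles at 20% or less was -18.8 points, and the contrast within 500 bp turned from -5.26 to 2.87 points (14 tiles). Fisher's exact test on pooled counts, which ignores the spread between replicates, called 2143 tiles (1526 higher, 617 lower), and the other alternatives called 0. Windows called numbered 8 with limma, 22 of 189 at 10 Mb and 130 of 417 with all sperm-methylated positions, and 0 to 8 when 1 library was left out. With the replicate number as a block, 0 windows and 0 tiles were called and the mean difference of 9.15 points in sperm-methylated tiles was the same by construction. Among named tiles, the one on chromosome 10 at 127179501 to 127179600 turned to -5.17 points without WT replicate 1 (up to 37.3 without WT replicate 2), and the one on chromosome 19 at 5422901 to 5423000 to 6.67 points without CKO replicate 2 (down to -35.0 without CKO replicate 1). Of 256 recomputed values for named tiles and windows, 225 kept direction and side of the threshold, 16 passed it under Fisher's test and 13 window values no longer passed it. All 13 belong to the 3 named windows higher in CKO, the only named members past the threshold as reported. Most of the 225 belong to tiles that had not passed it. With the replicate block, each of the 3 windows had an adjusted p of 0.247 in edgeR. At a median of 29 counts per tile and 2 libraries a group, differences of single tiles were not resolved by the test.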

Other observations

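The X chromosome held 0.523% and 0.572% of all counts in the WT blastocyst libraries and 0.514% and 0.492% in the CKO blastocyst libraries. In zygote libraries it held 1.04% and 1.10% (WT) and 0.914% and 0.893% (CKO), and in both sperm libraries 0.928%. Blastocyst libraries of either genotype thus lay below every zygote and sperm library. No label gives the sex of the pooled blastocysts.

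Both strands of 1 CpG were read at 5012 autosomal pairs of neighbouring positions with 5 counts in each sperm library. Of the 757 pairs with a methylated strand in sperm, 688 were methylated on both strands and 41 (5.42%) were methylated on one strand and unmethylated on the other.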
